A study of Sus scrofa with 12 samples.

Results

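The genes described here encode growth factors of the fibroblast (FGF), epidermal (EGF) and platelet-derived (PDGF) families, their receptor tyrosine kinases, the receptor MET, the ligand KITLG and the intracellular inhibitors of the Sprouty (SPRY) and SPRED families. The rule that picks them reads the gene symbol and no measured value, though the list of symbols was drawn up with earlier results of these data known. Of 20390 genes in the deposited table, 18 carried a symbol on that list, and 17 of these stood above the value of 1 in at least 4 of the 12 libraries and were tested. The excluded member was AREG, an EGF family ligand, which was above 1 in 3 libraries and reached 2.45 at most. Another AREG entry, listed under a different symbol, was tested and is described further below. Uterine RNA came from crossbred gilts (female piglets), 4 per group and 1 library per gilt. The PND0 gilts were sampled within 1 h of birth. Both other groups were sampled at 50 h of age, the PND2N gilts after 48 h of free nursing and the PND2R gilts after 48 h on a commercial milk replacer. The values are normalized, linear and without counts, with 1 as the lowest value in every library, so of a gene at 1 it can be said only that it was below detection at this depth.

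FGF, EGF and PDGF family ligands, as well as hepatocyte growth factor (HGF) and KITLG, bind receptor tyrosine kinases at the cell surface, which then signal through the RAS-MAPK and PI3K-AKT arms to drive proliferation, migration and survival. In developing organs with an epithelium and a mesenchyme, several of these ligands are made on one side and read on the other. FGF7, FGF10 and HGF are typical mesenchymal ligands, and FGFR2 and MET typical epithelial receptors, while PDGF receptors are carried mainly by mesenchymal and perivascular cells. In the pig, the uterine glands form and the uterine wall matures during the first weeks after birth.

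The table lists 13716 of its genes under placeholder symbols, and 10 of the symbols searched for were not found as such. Entries of the same families under a placeholder or an older symbol are therefore described after the members, as relatives. There were 42 of them, 27 named through the RefSeq gene table of a later assembly and 15 by the description in the deposited table, and 35 could be tested. Relatives were added once the table had been opened. EGFR was not analysed here.

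Library totals ran from 26534074 to 29544130. The commonest low value, between 1.18 and 2.45, was taken as 1 counting unit, which puts the depth roughly at 11348451 to 22749922 units per library. Of 11 genes typical of the uterus and its embryonic precursor, 10 were found in the table, with summed levels of 35352 to 51268. Libraries PND2N 1, PND2R 2 and PND2R 3, called high-DES libraries below, stood apart, with DES, the muscle intermediate filament, at 40049, 33144 and 29022 against 7460 to 23440 in the other 9. The endothelial gene VWF was 24.2, 55.8 and 90.2 there, against a range of 591 to 3194 elsewhere. The summed level of 10 endothelial markers, VWF included, was 15786, 11840 and 12771, within the 10591 to 21314 of the other libraries. KRT8, an epithelial keratin, stood at 39889, 31982 and 40042, and the epithelial gene EPCAM at 84.7, 79.7 and 120.0. Both lay within the range of the others. Among newborns, the summed level of 12 epithelial markers was 120506 in PND0 1, 125037 in PND0 2, 34677 in PND0 3 and 27033 in PND0 4. The part of these library differences in the results below was not tested, and values without the 3 high-DES libraries are given for members and called genes where leaving them out ended a call, turned a direction or moved a change by age by over 1.5 times. For the pathway lists at the end, this covers the genes named and mainly their calls by age.

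None of the growth factor members passed the threshold between newborn and day 2 uteri, or between nursed and replacer-fed gilts. The members with the largest differences by age were KITLG, EGF, FGFR2 and MET, all with lower group means at day 2. For each of the 4, newborn and day 2 values overlapped. FGFR1 and the inhibitors SPRED1, SPRED2 and SPRY4 varied least, by 1.78-fold to 2.23-fold between the highest and the lowest of the 12 libraries, while KITLG varied by 98.7-fold, EGF by 47.9-fold, MET by 25.3-fold and FGFR2 by 15.6-fold. In bulk tissue, fewer cells of a type and less RNA per cell cannot be told apart.

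In limma, with Benjamini-Hochberg adjustment over 16862 genes, 0 of 17 members passed an adjusted p of 0.05 for PND2N against PND0, where 3.32% of all genes passed. At an unadjusted p under 0.05 there were 2 members, BTC and EGF, or 11.8%, against 23.9% of all genes. For PND2R against PND0, 0 of 17 passed, against 15% of all genes, and 2, KITLG and EGF, had an unadjusted p under 0.05, against 37%. For PND2N against PND2R, 0 of 17 passed, against 0.0119%, and 0 had an unadjusted p under 0.05, against 2.68%. The mean of both day 2 groups against PND0 gave 0 of 17, against 18.1%, and again 2 at an unadjusted p under 0.05, KITLG and EGF, against 37.8%. The median log2 change of the members by age was -0.24, with 6 of 17 above 0, and that of all genes was -0.05, with 47.2% above 0. The comparisons with birth share the same PND0 libraries. The p-values measure the spread between gilts.

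**Figure D1:**
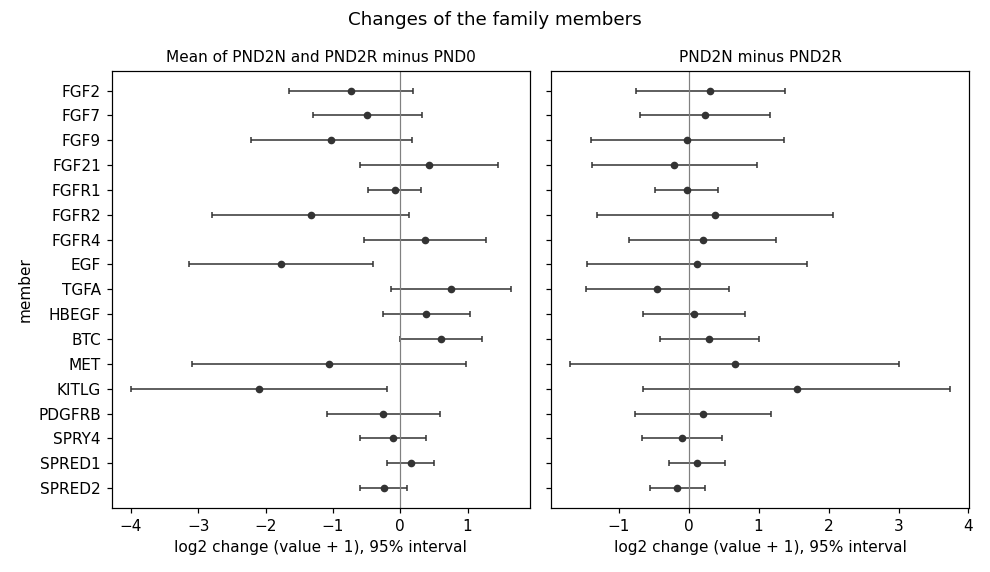
Log2 change of log2(value + 1) for the 17 tested members, by age (left, mean of PND2N and PND2R minus PND0) and by feeding (right, PND2N minus PND2R), with 95% intervals from limma as bars. By age, the intervals of EGF and KITLG lie below 0 before adjustment for the number of genes, and by feeding all 17 intervals include 0.

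Of the FGF ligands under their own symbol, FGF9, which epithelial and mesothelial cells produce in many developing organs, had the largest difference by age. Its values were 569, 541, 206 and 237 in PND0 1 to PND0 4. They were 77.9, 197, 323 and 172 in PND2N and 420.0, 60.8, 112 and 314 in PND2R. The 3 lowest values fell in the high-DES libraries and the 2 highest in the newborns with high epithelial markers, and the groups overlapped. The log2 change by age was -1.02 ± 0.55 (SE; limma, adjusted p = 0.187), and -0.30 without the 3 high-DES libraries.

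FGF2, a ligand of broad receptor use that binds heparan sulphate, stood at 52.1, 65.0, 249 and 202 in PND0. It measured 47.6, 99.1, 92.3 and 79.1 in PND2N and 63.7, 50.1, 66.0 and 68.2 in PND2R. Only PND0 3 and PND0 4 exceeded the day 2 range of 47.6 to 99.1. The change by age was -0.73 ± 0.42 (adjusted p = 0.219), and ran from -1.1 without PND0 1 to -0.36 without PND0 3, with -0.46 without PND0 4. It was -0.34 with quantile normalization and -0.40 with library quality weights. FGF7, the keratinocyte growth factor, divided the newborns in the same way, with 150.4 and 165 in PND0 3 and PND0 4 and 89.0 and 62.1 in PND0 1 and PND0 2. Its day 2 values were 39.9, 75.2, 125 and 129.5 in PND2N and 59.7, 79.9, 80.5 and 66.1 in PND2R, and the change by age was -0.49 ± 0.37 (adjusted p = 0.343). That change ran from -0.75 without PND0 2 to -0.28 without PND0 4, with -0.31 without PND2N 1, and was -0.07 with quantile normalization. FGF21, best known as a metabolic hormone of liver, took its 3 highest values in the high-DES libraries, at 136, 92.4 and 139, and lay between 27.9 and 91.1 elsewhere. Its change by age of 0.43 ± 0.47 became -0.10 without those libraries, 0.24 without PND2N 1 and 0.27 without PND2R 3. It was 0.84 with quantile normalization and 0.13 with library quality weights.

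For all 4 FGF ligands, the ranges of nursed and replacer-fed gilts overlapped. The differences PND2N minus PND2R, with 95% intervals, were 0.31 (-0.75 to 1.37) for FGF2, 0.23 (-0.70 to 1.16) for FGF7, -0.02 (-1.40 to 1.36) for FGF9 and -0.21 (-1.38 to 0.97) for FGF21. These widths leave room for differences of 2-fold in either direction for FGF9 and, in at least 1 direction, for the others.

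The FGF receptors differed among themselves in how far they varied. FGFR1, the receptor typical of mesenchyme, measured 3407, 3034, 4898 and 5184 in PND0. It measured 3687, 3812, 3876 and 3663 in PND2N and 2915, 4817, 4674 and 3316 in PND2R. The 3 groups covered much the same range, and the log2 change by age was -0.08 with a 95% interval of -0.48 to 0.31, its sign turning to 0.01 without PND0 3 and 0.04 without PND0 4. It was -0.23 without the 3 high-DES libraries. The difference between feedings was -0.03, with an interval of -0.48 to 0.42.

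FGFR2 (chr14:141996260-142063084 of Sscrofa10.2), whose epithelial isoform is the receptor for FGF7 and FGF10, measured 2203, 1450.0, 534 and 999 in PND0. In PND2N it was 141, 855, 1072 and 558, and in PND2R 1072, 146, 182 and 887. The values of 141, 146 and 182 belonged to the high-DES libraries, and the 5 other day 2 values lay inside the newborn range. The change by age was -1.33 ± 0.67 (adjusted p = 0.166), and -0.37 without those libraries. The summed epithelial markers in the same libraries, 102895, 81627 and 103322, were not low among the day 2 range of 57939 to 103322. KRT8 alone made up 39889, 31982 and 40042 of these sums. EPCAM, another of the markers, was 84.7, 79.7 and 120.0 there, against 86.7 to 171.5 in the other day 2 libraries. The part of epithelial content in the FGFR2 result was not tested.

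FGFR4, a receptor for the hormone-like FGFs and for several paracrine ones, ran the other way among newborns, from 300.2 and 687 in PND0 1 and PND0 2 to 1176 and 1444 in PND0 3 and PND0 4. It was 1735, 1250.0, 916 and 659 in PND2N and 619.9, 1305, 1377 and 676 in PND2R. All day 2 values except that of 1735 lay inside the newborn range. The change by age was 0.37 ± 0.42 (adjusted p = 0.523), and turned to -0.08 without PND0 1. It was 0.58 without PND0 3, 0.68 without PND0 4 and -0.0035 without the 3 high-DES libraries.

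Of the EGF family ligands, EGF itself (chr8:118984972-119013437) was near the lower end of the scale in all groups. It measured 25.3, 24.0, 47.9 and 14.7 in PND0, against 1, 14.9, 8.60 and 13.4 in PND2N and 11.1, 3.54, 2.20 and 17.2 in PND2R. In 6 of 8 day 2 libraries EGF was below the lowest newborn value, and the 3 lowest were again those of high DES. The log2 change by age was -1.77 ± 0.63 (adjusted p = 0.0672). It was -0.94 without the 3 libraries (adjusted p = 0.147), and it just passed the threshold without PND2R 4 (adjusted p = 0.050) and with a pseudocount of 5 (adjusted p = 0.0453). The differences from birth were alike in size for nursed (-1.71 ± 0.72) and replacer-fed gilts (-1.83 ± 0.72), and the difference between feedings was 0.12, with an interval of -1.46 to 1.69.

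BTC (betacellulin), a ligand of EGFR and ERBB4, was 103, 171, 265 and 313 in PND0. Its day 2 values were 291, 412, 289.5 and 338 in PND2N and 312, 273, 227 and 268 in PND2R. PND0 1 and PND0 2 were lower than every day 2 library, while PND0 3 and PND0 4 lay within the day 2 range. The change from birth to the nursed group was 0.75 ± 0.32 (adjusted p = 0.184), and that by age was 0.60 ± 0.28, or 0.29 without PND0 1. TGFA (transforming growth factor alpha) showed the opposite order of newborns, with 143 and 113 in PND0 1 and PND0 2 and 28.3 and 47.5 in PND0 3 and PND0 4. It was 113, 73.4, 96.0 and 125 in PND2N and 168, 95.2, 168 and 129 in PND2R, a change by age of 0.76 ± 0.41 (adjusted p = 0.186) that was 0.34 without PND0 3 and 1.18 with quantile normalization. HBEGF, the heparin-binding ligand, measured 150.1, 159, 180.3 and 218 in PND0, 288, 203, 159 and 334 in PND2N and 139, 373, 260.3 and 187 in PND2R. Its groups overlapped, with a change by age of 0.39 ± 0.29 (adjusted p = 0.336), which was 0.11 without the 3 high-DES libraries and 0.65 with quantile normalization. Between feedings, the intervals were -0.41 to 1.00 for BTC, -1.47 to 0.57 for TGFA and -0.66 to 0.81 for HBEGF.

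KITLG (stem cell factor, chr5:97778566-97832629), the ligand of KIT on mast cells, germ cells and melanocytes, had the widest range of the members. It measured 67.8, 81.7, 175 and 144 in PND0. It was 10.9, 85.7, 102 and 34.1 in PND2N and 63.1, 1.77, 4.40 and 52.5 in PND2R. All 4 replacer-fed gilts lay below all newborns, which made KITLG the only 1 of 17 members (5.88%) whose PND2R and PND0 values did not overlap, against 28.3% of all genes, 15.6% of them lower. No member was free of overlap for PND2N against PND0 (16% of all genes), for PND2N against PND2R (2.55%) or for all day 2 libraries against PND0 (13.3%). The change from birth to PND2R was -2.87 ± 1.01 (adjusted p = 0.0695), with the values of 1.77 and 4.40 in high-DES libraries. Without PND2N 1 both KITLG and EGF passed in this comparison, and without PND2R 1 KITLG did. By age the change was -2.09 ± 0.87 (adjusted p = 0.105), and -0.80 without the 3 libraries. The difference between feedings was 1.55, with an interval of -0.65 to 3.74, and was 0.73 without PND2R 2 and 0.22 without the 3 libraries. A second KITLG entry (LOC100626805), 6284 bases away on the opposite strand, measured 44.8, 39.1, 81.1 and 64.1 in PND0, 1, 59.5, 84.1 and 22.6 in PND2N and 54.0, 5.31, 2.51 and 40.0 in PND2R. In that entry PND2R 1 and PND2R 4 lay within the newborn range, and the change from birth to PND2R was -1.91 ± 1.15 (adjusted p = 0.237). Of 5 mast cell markers 3 were found in the table, with summed levels of 1823 to 3913 in PND0 and 1523 to 2092 at day 2.

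MET (chr18:31592353-31637933), the receptor of HGF, measured 3981, 2725, 1582 and 1419 in PND0. It was 162, 2396, 4090.0 and 2045 in PND2N and 3227, 174, 338 and 2715 in PND2R. The values of 162, 174 and 338 were those of the high-DES libraries, and the other day 2 libraries, from 2045 to 4090.0, covered the upper newborn range. The change by age was -1.06 ± 0.93 (adjusted p = 0.417) with all libraries and turned to 0.35 without these 3. It was -0.55 without PND2N 1, -0.68 without PND2R 2 and -0.41 with library quality weights. MET therefore had no single direction by age across these libraries.

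PDGFRB, a receptor of pericytes and mesenchymal cells, was the only PDGF family gene under its own symbol, in a short entry of 3564 bases (chr2:158267229-158270792). It measured 156, 213, 231 and 318 in PND0, 425, 216, 97.8 and 179 in PND2N and 104, 258, 243 and 141 in PND2R. The groups overlapped, with a change by age of -0.25 ± 0.39 (adjusted p = 0.657). That change was -0.69 without the 3 high-DES libraries (adjusted p = 0.173), -0.03 with quantile normalization, and between -0.43 without PND2N 1 and -0.08 without PND0 4 when 1 library was left out. A longer entry for the same gene is described with the relatives.

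The inhibitors, with FGFR1, had the narrowest ranges of the 17 tested members. SPRED1, which restrains RAS activation through neurofibromin, ran from 2341 to 4055 at birth, from 3074 to 4240.0 with nursing and from 3110.0 to 3645 with replacer. SPRED2, a related protein, ran from 2324 to 3731, from 2036 to 2841 and from 2295 to 3101 in the same groups. SPRY4, a feedback inhibitor induced by FGF signalling, ran from 776 to 1428, from 639 to 1209 and from 696 to 1272. The 95% intervals between feedings were -0.28 to 0.52 for SPRED1, -0.56 to 0.24 for SPRED2 and -0.67 to 0.47 for SPRY4, so that differences over 2-fold lay outside them. By age, SPRED1 changed by 0.16 ± 0.16, SPRED2 by -0.24 ± 0.16 and SPRY4 by -0.11 ± 0.23, of which the last turned to 0.07 without PND0 4. Without the 3 high-DES libraries these were 0.09, -0.12 and -0.32, and leaving out 1 library gave 0.02 (PND0 1) to 0.28 (PND0 3) for SPRED1 and -0.37 (PND0 4) to -0.14 (PND0 1) for SPRED2.

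**Figure D2:**
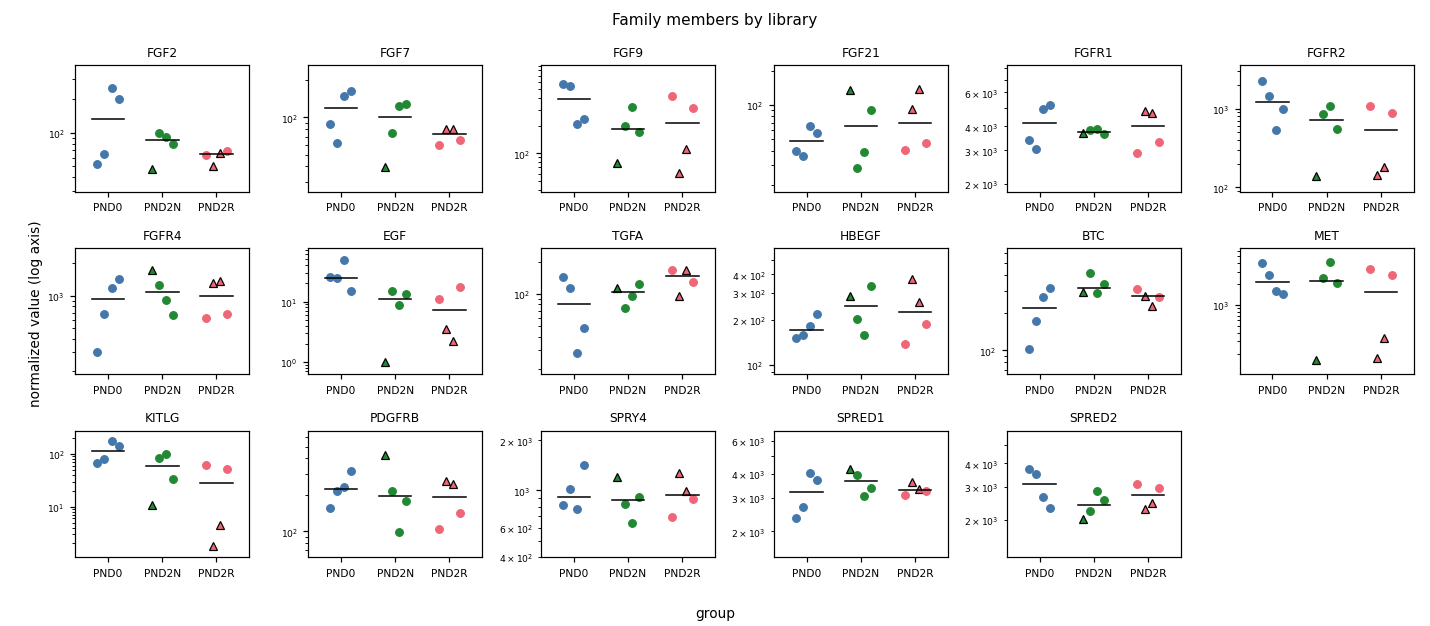
Normalized value (log axis) of the 17 tested members in each library, by group. Points are libraries, triangles the 3 high-DES libraries (PND2N 1, PND2R 2, PND2R 3) and bars the group medians, and the triangles lie at the bottom for KITLG, EGF, FGF9, FGFR2 and MET.

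The high-DES libraries held the 3 lowest values of 5 members (KITLG, EGF, FGF9, FGFR2 and MET), or 29.4% of 17, against 21.2% of all genes tested. They held the 3 highest values of 1 member, FGF21, or 5.88%, against 15.8%. The newborns also divided, with both PND0 3 and PND0 4 above both PND0 1 and PND0 2 for 10 members (58.8%, against 33.6% of all genes). TGFA, SPRED2, FGF9, FGFR2 and MET had the reverse order, 5 members or 29.4%, against 34.4% of all genes. The summed epithelial markers had this reverse order too, but the group was defined by that order, so the match says nothing more about its members.

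The relatives added changes that passed the threshold. HGF, PDGFRB in its longer entry and SPRY1 were lower in replacer-fed gilts than at birth. With both day 2 groups together, the same 3 were lower, as was a short entry of FGF13, and FGF10 was higher. These were 3 of 35 relatives for PND2R against PND0 (8.57%, against 15% of all genes and 7.31% for lower calls). By age they were 5 of 35 (14.3%, against 18.1%), with 4 lower (11.4%, against 8.49%) and 1 higher (2.86%, against 9.57%). None of 35 passed in limma for PND2N against PND0, with 5 at an unadjusted p under 0.05 (14.3%, against 23.9%). None passed between feedings, with 0 at an unadjusted p under 0.05. Without the 3 high-DES libraries, 0 of 35 passed in these comparisons. At an adjusted p under 0.05, 254 genes passed in all for PND2R against PND0 in that smaller fit, and 1418 by age.

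HGF (LOC100525120, chr9:107160846-107233337), the mesenchymal ligand of MET, stood at 898, 536, 3741 and 2871 in PND0. It was 149, 832, 1072 and 351 in PND2N and 365, 94.9, 121 and 284 in PND2R. Every replacer-fed library was below every newborn, while PND2N 2 and PND2N 3 lay within the newborn range. Such a lack of overlap, with PND2R lower, held for HGF, the longer PDGFRB entry and SPRY1. These were 3 of 35 relatives (8.57%), against 15.6% of all genes. The log2 change was -3.01 ± 0.75 for PND2R against PND0 (adjusted p = 0.0244), -1.69 ± 0.75 for PND2N against PND0 (adjusted p = 0.192) and -2.35 ± 0.65 by age (adjusted p = 0.0296). The difference between feedings of 1.32, with an interval of -0.30 to 2.94, did not pass. Without the 3 high-DES libraries the change from birth to PND2R was -2.22 (adjusted p = 0.132) and that by age -1.69 (adjusted p = 0.0931). The call in PND2R was also lost without PND0 3, PND0 4, PND2R 2 or PND2R 3 (adjusted p = 0.0622 to 0.0782), and that by age without any of these or PND2N 4 (adjusted p = 0.0550 to 0.101). Summed levels of 7 stromal markers ranged over 292362 to 395779 at birth, 242465 to 469801 with nursing and 209227 to 377114 with replacer, and their part in the HGF result was not tested.

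The longer PDGFRB entry (LOC100626362, chr2:158524840-158579621) measured 3409, 5040.0, 7260.0 and 8574 in PND0. It measured 1963, 5243, 3217 and 2715 in PND2N and 2660.0, 2089, 1411 and 2351 in PND2R. The replacer-fed range ended below the newborn range, and of the nursed gilts only PND2N 2 lay inside it. The change was -1.46 ± 0.34 for PND2R against PND0 (adjusted p = 0.0207) and -1.18 ± 0.29 by age (adjusted p = 0.0216). Without the 3 high-DES libraries these were -1.19 (adjusted p = 0.113) and -0.94 (adjusted p = 0.070). The first call was lost without PND0 3, PND0 4, PND2R 2 or PND2R 3 (adjusted p = 0.0505 to 0.0693), the second without PND0 3 or PND0 4 (adjusted p = 0.0661 and 0.0796). The 4 pericyte markers found in the table had sums of 6044 to 19176 at birth, 10592 to 14051 with nursing and 8984 to 11143 with replacer, and their part in the PDGFRB result was not tested.

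SPRY1 (LOC100623283, chr8:106120140-106124898), a feedback inhibitor of RAS-MAPK signalling, was 548, 828, 779 and 747 in PND0. It was 203, 567, 495 and 449 in PND2N and 464, 168, 149 and 424 in PND2R. The high-DES libraries were lowest at 203, 168 and 149, and of the others only PND2N 2 exceeded the lowest newborn. The change was -1.43 ± 0.42 for PND2R against PND0 (adjusted p = 0.0417) and -1.14 ± 0.37 by age (adjusted p = 0.0496). These were -0.69 (adjusted p = 0.131) and -0.60 (adjusted p = 0.0647) without the 3 libraries. Leaving out any newborn, PND2N 4, PND2R 2 or PND2R 3 ended both calls, and leaving out PND2N 1 also ended the call by age (adjusted p = 0.0553 to 0.127 and 0.0634 to 0.121). No filter, TMM scaling and library quality weights also ended both calls, and a pseudocount of 0.1 and plain empirical Bayes that by age (adjusted p = 0.0503 to 0.131 over these settings). SPRY2 (LOC100157266), by contrast, had the narrowest range of the tested family entries, from 1897 to 2615. Its nursed values of 2325, 2264, 2354 and 2615 all lay above the newborn values of 2096, 2062, 1897 and 2210.0, a change of 0.21 ± 0.12 that did not pass (adjusted p = 0.285), while 8.14% of all genes had such an order.

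FGF10 (LOC100525086, chr16:31028275-31105330), a mesenchymal ligand needed for the budding of many epithelia, was the only entry of the families past the threshold with a rise. It measured 29.8, 41.3, 32.4 and 79.4 in PND0. It measured 96.6, 112, 70.1 and 136 in PND2N and 79.4, 90.8, 111 and 73.6 in PND2R. Newborns PND0 1 to PND0 3 lay below every day 2 library, and PND0 4 within the day 2 range. The rise by age was 1.14 ± 0.31 (adjusted p = 0.0286), with 1.23 ± 0.36 in nursed (adjusted p = 0.0743) and 1.04 ± 0.36 in replacer-fed gilts (adjusted p = 0.0652). It was nearly as large without the 3 high-DES libraries, at 1.05 (adjusted p = 0.0868). The call was lost without PND0 1, PND0 2, PND0 3, PND2N 4, PND2R 2 or PND2R 3 (adjusted p = 0.0526 to 0.0816).

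FGF13 is an intracellular member of the FGF family that is not secreted and acts on sodium channels and microtubules. Its entry LOC100623204 (chrX:120240485-120242729) stood at 108, 39.4, 99.8 and 128 in PND0, 4.31, 20.2, 52.8 and 16.1 in PND2N and 39.9, 7.08, 16.2 and 44.9 in PND2R. The newborn PND0 2 lay within the day 2 range, the other newborns above it. The change by age was -2.11 ± 0.63 (adjusted p = 0.0403), and -1.35 without the 3 high-DES libraries (adjusted p = 0.0863). It was also lost in 7 of the 12 fits without 1 library, namely PND0 1, PND0 3, PND0 4, PND2N 2, PND2N 4, PND2R 2 or PND2R 3 (adjusted p = 0.0520 to 0.120).

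**Figure D3:**
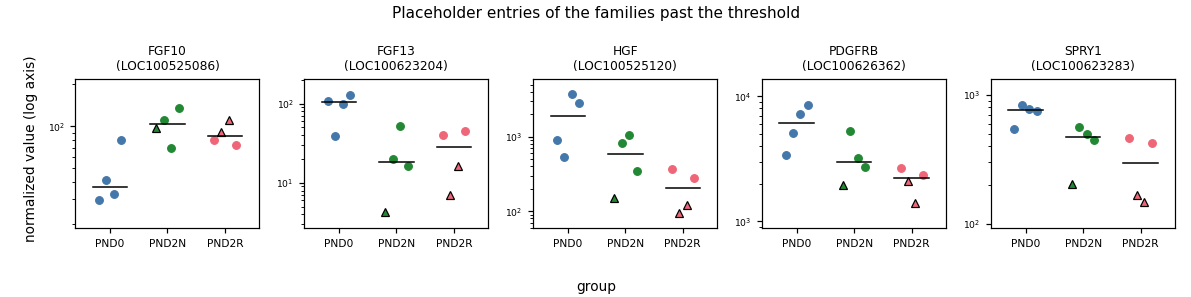
Normalized value (log axis) of the 5 placeholder entries past the threshold, by library and group. Points are libraries, triangles the 3 high-DES libraries and bars the group medians, with FGF10 higher and FGF13, HGF, PDGFRB and SPRY1 lower at day 2.

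Among the other relatives, the PDGF ligands lay in overlapping ranges. PDGFA (LOC100519764) ran from 567 to 1577 over all libraries, PDGFC (LOC100515267) from 4013 to 9057 and PDGFD (LOC100524161) from 5985 to 13161. Their changes by age were 0.27 ± 0.30, 0.27 ± 0.21 and 0.36 ± 0.18 (adjusted p = 0.522, 0.357 and 0.169), and each was lowest in PND0 3 and PND0 4. PDGFRA, the receptor of mesenchymal progenitors, stood in 3 entries, of which LOC100524633 had the highest values. It measured 1679, 2358, 4227 and 4141 in PND0, 599, 3975, 3534 and 976 in PND2N and 2195, 400.3, 756 and 1949 in PND2R. The lowest 3 values were those of the high-DES libraries, and the change by age was -1.10 ± 0.59 (adjusted p = 0.185). Entries LOC100627123 and LOC100626920 changed by -1.47 ± 0.66 and -1.33 ± 0.82 (adjusted p = 0.126 and 0.246), with the same 3 libraries lowest.

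The ERBB receptors, which bind or amplify EGF family signals, showed no change past the threshold. ERBB2 (LOC100516641), the coreceptor with no ligand of its own, measured 15620.0, 16346, 9952 and 10189 in PND0. Its day 2 values ran from 11184 to 15228 in PND2N and from 12232 to 16617 in PND2R, and the change by age was 0.09, with an interval of -0.27 to 0.45. ERBB3 (LOC100157538), a neuregulin receptor, was 113, 100.4, 42.3 and 68.5 in PND0, 34.2, 70.5, 96.2 and 77.3 in PND2N and 107, 25.6, 44.3 and 87.4 in PND2R. ERBB4 (LOC100525789), which also binds neuregulins, was 101, 98.6, 52.8 and 26.4 in PND0, 106, 53.2, 73.8 and 80.6 in PND2N and 144, 63.8, 97.9 and 89.4 in PND2R. Their changes by age were -0.31 ± 0.44 and 0.47 ± 0.38 (adjusted p = 0.627 and 0.383). All 3 receptors were higher in PND0 1 and PND0 2 than in PND0 3 and PND0 4, as were 34.4% of all genes and the summed epithelial markers.

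EREG (LOC100620870, epiregulin), an EGF family ligand, was 394, 428, 491 and 395 in PND2R, above the newborn values of 291, 180.3, 327 and 360.4. The difference of 0.60 ± 0.28 did not pass (adjusted p = 0.143), and 12.7% of all genes had this order without overlap. The nursed values of 507, 298, 249.6 and 427 overlapped both groups. The 3 highest values, 507, 428 and 491, were those of the high-DES libraries, an order that 15.8% of all genes had. PND2R 1 and PND2R 4, at 394 and 395, also lay above the newborns. FGF1, listed under its older symbol AFGF, ran from 164 to 329 with no order by group. FGF18 (LOC100525013), a ligand of mesenchymal growth, divided the newborns into 420.0 and 426 in PND0 1 and PND0 2 and 47.9 and 91.7 in PND0 3 and PND0 4, and lay between 201 and 338 at day 2. An AREG entry (LOC100525882) was above 1 in 9 libraries, up to 8.53 in PND2N and 11.8 in PND2R against 2.55 in PND0. The groups overlapped close to the lowest value, with a change by age of 0.60 ± 0.52 (adjusted p = 0.41). Entries named FGF3, FGF4, FGF5, FGF6, FGF20 and FGF23 stayed at or below 2.30 and were not tested, nor was a second EREG entry listed at 1 throughout.

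**Figure D4:**
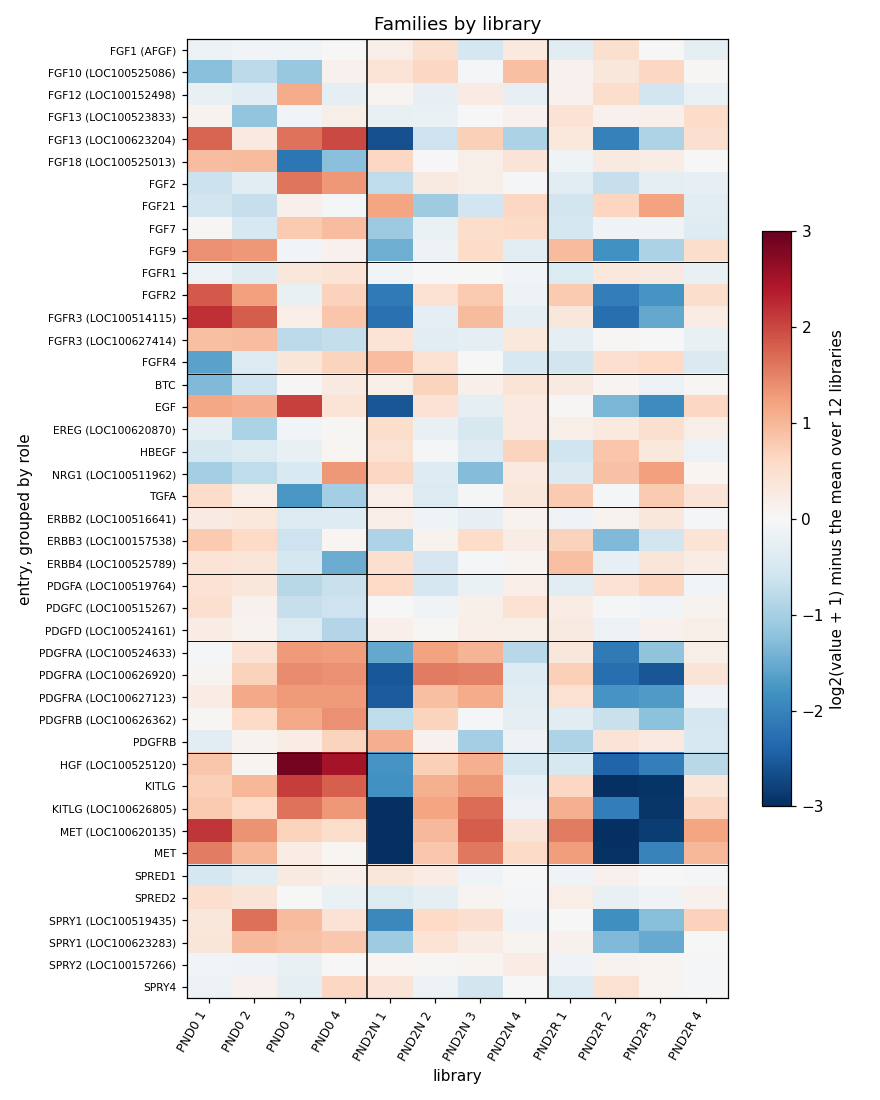
Log2(value + 1) minus each entry's mean over the 12 libraries, for the 43 tested members and relatives with a mean of at least 20 in some group (rows, by role) in each library (columns, by group), with colours limited to 3 in either direction. The columns PND2N 1, PND2R 2 and PND2R 3 are blue for the entries of MET, KITLG, PDGFRA and SPRY1 and for HGF, and near white for SPRED1, SPRED2, SPRY2 and ERBB2.

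Several genes of the families stood in the table as more than 1 entry on the same chromosome, mostly on opposite strands. Whether counting used strand is not given in the sources used here, so values of such entries are uncertain. The FGFR3 entries overlap by 2 bases, while those of MET lie 41519, of FGF13 87490 and of PDGFRB 254047 bases apart. The ratios between such entries were not constant, and are given with no test. MET was 1.76 to 2.10 times its second entry (LOC100620135) in PND0 and 2.15 to 7.01 times at day 2, with 3.61, 7.01 and 4.81 in the high-DES libraries. That second entry changed by -1.76 ± 1.17 by age (adjusted p = 0.281). For FGFR3, the receptor that restrains cartilage growth, entry LOC100627414 was 16.5 to 36.5 times entry LOC100514115 in the high-DES libraries, against 1.93 to 8.53 times in the other 9. LOC100514115 ran from 159 to 637 in PND0 and from 28.3 to 267 at day 2, LOC100627414 from 460 to 1487 and from 626 to 1041. By age they changed by -1.89 ± 0.65 (adjusted p = 0.0621) and -0.13 ± 0.34 (adjusted p = 0.802), so the size of the FGFR3 change depended on the entry. The longer PDGFRB entry was 4.62 to 8.10 times the short one in those 3 libraries and 15.2 to 32.9 times elsewhere. The FGF13 entry LOC100523833 was 4.72 to 5.94 times LOC100623204 at birth, and every day 2 ratio was higher, up to 106 in PND2N 1. The direction of a difference thus depended on the entry for FGF13, since LOC100523833 changed by 0.37 ± 0.24 by age (adjusted p = 0.270). That entry was lower in every nursed than in every replacer-fed gilt, at 457, 468, 530.3 and 579.6 against 724, 584, 595 and 786, a difference of -0.40 ± 0.28 that did not pass (adjusted p = 1.0). It was the only relative of 35 without overlap between feedings (2.86%, against 2.55% of all genes and 1.16% for lower calls).

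**Figure D5:**
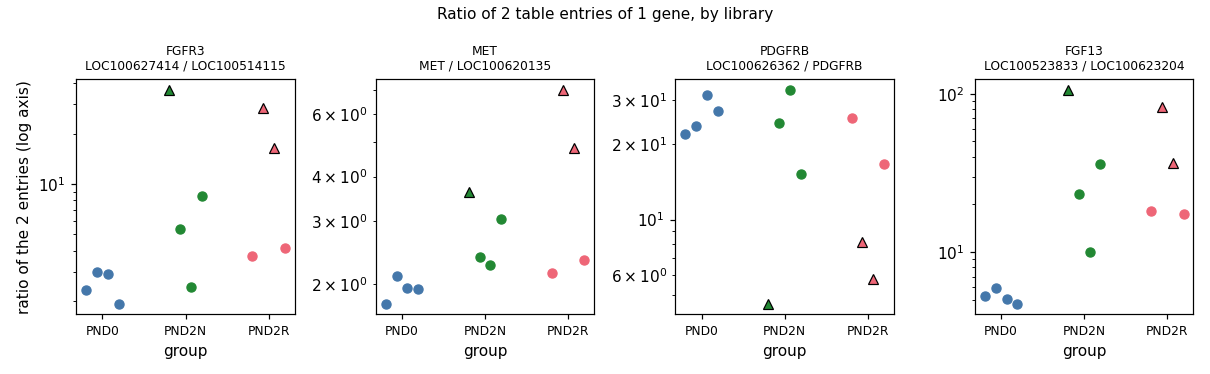
Ratio of the values of 2 table entries of 1 gene (log axis) in each library, by group, for FGFR3, MET, PDGFRB and FGF13. Points are libraries and triangles the 3 high-DES libraries, which have the highest ratios for FGFR3, MET and FGF13 and the lowest for PDGFRB.

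The other genes of these pathways were read from 5 lists, with no test between lists. In the PI3K and AKT arm, which carries growth and survival signals inside the cell, 1 of 17 entries tested was higher and 5 lower by age, with a median log2 change of -0.53, against 9.57% higher and 8.49% lower among all genes. Without the 3 high-DES libraries, 0 were higher and 5 lower, though not the same 5. RICTOR no longer passed (-1.33, adjusted p = 0.11), and an entry not called with all libraries did. TSC2, a brake on the growth regulator MTOR, ran from 5241 to 8702 in PND0 and from 3068 to 4259 at day 2, without overlap (6.62% of all genes were lower in this way), and fell by 0.86 on the log2 scale (adjusted p = 0.00662). RPTOR (LOC100512677), a subunit of the MTOR complex that senses nutrients, ran from 2733 to 3659 and from 1989 to 2499, and fell by 0.57 (adjusted p = 0.0104). Both calls by age held in all 12 fits without 1 library and without the 3 high-DES libraries (adjusted p = 0.0286 and 0.0254). TSC2 and RPTOR also passed for PND2N against PND0 (adjusted p = 0.0441 and 0.0497), calls lost in 10 and 11 of the 12 fits. Their calls for PND2R against PND0 (adjusted p = 0.00977 and 0.0177) were lost in 0 and 1 of them. Without the 3 high-DES libraries, neither gene passed in these 2 comparisons (adjusted p = 0.0676 to 0.083). PIK3R1 (LOC100623707), the regulatory subunit of PI3K, fell by 1.91 by age (adjusted p = 0.0170), from 366 to 569 in PND0 to 55.1 to 273 at day 2. Of the fits without 1 library, that call was lost only without PND0 4 (adjusted p = 0.0595). Its call for PND2R against PND0 (adjusted p = 0.0259) ended without the 3 high-DES libraries (adjusted p = 0.101). RHEB, the activator of MTOR, rose by 0.54 (adjusted p = 0.0451), and its call was lost in 8 of 12 such fits and without the 3 high-DES libraries (0.35, adjusted p = 0.157).

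In the list of adaptors and the RAS-MAPK cascade, 0 of 22 entries were higher and 6 lower by age (9.57% and 8.49% of all genes), with a median of -0.34, and 2 were lower without the 3 libraries. GAB2, a docking protein of receptor tyrosine kinases, fell by 1.31 by age (adjusted p = 0.0143), from 699 to 1996 in PND0 to 303 to 713 at day 2. That call was lost only without PND0 4 (adjusted p = 0.0541) and held without the 3 libraries (adjusted p = 0.0355). The other calls by age in this list were each lost in 7 to 11 of the 12 fits without 1 library. Without the 3 libraries, KSR1 passed (adjusted p = 0.0285) and the rest did not (adjusted p = 0.0677 to 0.128). For PND2R against PND0, GAB2 also passed (adjusted p = 0.0182), but not without the 3 libraries (adjusted p = 0.0745). Of 19 targets and feedback regulators, 2 were lower, a share near the 8.49% of all genes, with a median of -0.29. EGR1 (LOC100520726), an immediate early gene induced through MAPK, was 75.9, 79.4, 52.3 and 44.2 in PND0. It was 17.1, 13.9, 51.8 and 22.5 in PND2N and 7.75, 22.5, 4.40 and 9.33 in PND2R, so that only PND2N 3 reached the newborn range. EGR1 fell by 1.98 by age (adjusted p = 0.0149), in all 12 fits without 1 library and without the 3 libraries (adjusted p = 0.0237).

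Outside the cell, 3 of 20 cofactors and heparan sulphate genes were lower by age and 0 higher (8.49% and 9.57% of all genes), with a median of 0.02. These were the syndecan SDC4 (-1.07, adjusted p = 0.0337), the sulphotransferase HS2ST1 (-0.46, adjusted p = 0.0370) and the sulphatase SULF2 (-0.69, adjusted p = 0.0470), each lost in 6 to 9 of the 12 fits without 1 library. SDC4 (adjusted p = 0.0897) and HS2ST1 (adjusted p = 0.123) no longer passed without the 3 high-DES libraries, and SULF2 did (adjusted p = 0.0325). Of 22 activators and sheddases, 2 were higher and 0 lower, near the 9.57% of all genes that were higher, with a median of 0.04, and 0 were higher without the 3 high-DES libraries. ST14 (LOC100517843), the protease matriptase that activates HGF at the surface of epithelia, rose by 1.01 (adjusted p = 0.0183), from 5011 to 11453 in PND0 to 11328 to 19180 at day 2. Its call was lost without PND0 3 or PND0 4, and at 0.89 without the 3 libraries (adjusted p = 0.074). PLAT, the tissue plasminogen activator, rose by 0.58 (adjusted p = 0.0370), a call lost in 8 of the 12 fits without 1 library (adjusted p up to 0.101) and without the 3 high-DES libraries (adjusted p = 0.0561). Between feedings, 0 entries of the 5 lists (17, 22, 19, 20 and 22 tested) passed in limma, against 0.0119% of all genes. Only 1 entry, EGR1, had an unadjusted p under 0.05, against 2.68% of all genes. It was higher in PND2N than in PND2R by 1.22, with an interval of 0.10 to 2.33 (limma, unadjusted p = 0.0349).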

How the data were processed

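The authors deposited 1 table of normalized linear signal per gene and library, with no counts. Per the submitters' processing notes, bcl2fastq was used, and Sscrofa10.2 is the genome build named. Which aligner, counter and normalization were used is not given in the sources used here. Of the values under 100, 29.7% to 41.2% per library were whole multiples of 0.5 counting units within 0.02, so whole reads could not be recovered, and neither a count test nor a counting interval was made.

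Libraries were grouped by their labels. Genes above 1 in at least 4 of 12 libraries (16862) were tested on log2(value + 1) in 1 fit of all libraries in R 4.3.3 with limma 3.58.1 and statmod 1.5.0, using robust empirical Bayes moderation with a trend, two-sided contrasts and a threshold of 0.05 on the Benjamini-Hochberg adjusted p. The fit was also run on simulated data with independent noise for each gene and library. Such data lack differences shared by many genes of a library, so the run cannot show how these affect the fit. Fold changes on this scale understate those of low genes. Tables and figures used matplotlib 3.10.9, pandas 2.3.3 and numpy 2.4.6 under Python 3.11.15. RefSeq names came from Sscrofa11.1, and coordinates from the deposited table.

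Members and lists were chosen with earlier results of these data known. Named were all receptors, up to 3 members per class with the smallest p by age and 2 by feeding, all calls, and at most 4 calls per further list. Alternatives were pseudocounts of 0.1 and 5, no filter or one at 10, TMM scaling (trims of 0.3 and 0.05), quantile normalization, only the groups compared, a 2-fold threshold, library quality weights, moderation with neither trend nor robustness, each library left out, and, chosen after seeing the data, the 3 libraries of high DES left out together.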

Additional observations from a re-analysis of the deposited data

How the results depend on the processing

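The count of members past the threshold stayed at 0 for PND2N against PND0 and for PND2N against PND2R under every alternative run. For PND2R against PND0 it was 0 to 2 when 1 library was left out, and 0 otherwise. By age it was 0 to 1 in those fits and 1 with a pseudocount of 5. The count of relatives was less stable. For PND2N against PND0 it was 0, and 1 (FGF10) with library quality weights. For PND2R against PND0 it was 3, with 0 to 6 when 1 library was left out, 1 with no filter and 0 without the 3 high-DES libraries (PND2N 1, PND2R 2, PND2R 3). By age it was 5, with 0 to 7 when 1 library was left out, 2 with no filter, 2 with TMM scaling, 1 with library quality weights and 0 without the 3 libraries. Besides SPRY1, the calls by age on HGF and FGF13 ended with no filter, TMM scaling or library quality weights, that on PDGFRB with quality weights, and that on HGF in PND2R with no filter. Changes by age that turned sign were FGFR4 (-0.0768 without PND0 1, with 0.677 the highest value without 1 library, and -0.0035 without the 3 libraries), SPRY4 (0.0683 without PND0 4, with -0.225 the lowest), FGF21 (-0.10 without the 3 libraries), FGFR1 (0.01 without PND0 3 and 0.0383 without PND0 4, with -0.219 the lowest) and MET (0.35 without the 3 libraries). None of these had passed the threshold, and the cause was not tested. No paired analysis was possible because the labels give no litter, date, batch or pairing. The replicate numbers used here only follow accession order. The fit treats the gilts as independent, and whether any were littermates is not known here. Depth is known only roughly, so genes near the value of 1, such as AREG and EGF in 1 library, have an unknown counting error.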
